A study of Homo sapiens with 6 samples.

Results

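The ATP-binding cassette (ABC) transporters were followed in SKOV3, an established human ovarian carcinoma line, as every array probe whose platform gene symbol has the form of a family name (ABCA to ABCG and a number). This rule took 72 of the 48799 probes, for 42 of 18849 named genes. The study set 3 arrays of the subline SKOV3-ip1 (here ip1), labelled as parental cells, against 3 of SKOV3-OM3 (OM3), labelled as metastatic cells. Both groups carry the same cell line label, and no treatment, time point or engineered allele is given for either. The labels do not say whether the arrays of a group came from separate cultures, so each p-value reflects the scatter of these arrays alone, which may be technical. The RNA protocol speaks of tissues while the source is given as ovarian cancer cells, and nothing in the labels says how many cells of a host a sample might hold.

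ABC proteins bind and split ATP in a shared nucleotide-binding domain, and most use that energy to move a substrate across a membrane. Members of ABCA and ABCG mainly move lipids and sterols. ABCB and ABCC hold most drug efflux pumps beside mitochondrial and lysosomal transporters and ion channel regulators. Most ABCD proteins carry fatty acids into peroxisomes. ABCE and ABCF proteins have no membrane part and work in translation. In ovarian cancer the family is best known for pumps such as ABCB1, which exports taxanes and anthracyclines.

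The arrays resembled each other within groups (Pearson correlation over the probes tested 0.983 to 0.986) more than between groups (0.821 to 0.836), and each array had 38.2% to 42% of its probes over background. Ovarian carcinoma markers differed between the groups: of 10, 8 fell in OM3, 1 rose and 1 (MUC16) did not pass the test. The marker that rose was EPCAM, with a mean log2 signal of 12.05 in ip1 and 13.02 in OM3. Among all genes tested, 24.9% were lower and 30.1% higher in OM3. The summed signal of the 10 markers was 43395 to 47142 on the ip1 arrays and 9223 to 10898 on the OM3 arrays. PAX8, MSLN and KRT19 were above background on no OM3 array, so they passed the filter only through the ip1 arrays and had to differ. Of 10 fibroblast markers, all 7 that were tested rose, with a summed signal of 474 to 496 against 7971 to 9071, and FAP and PDGFRB were above background on no OM3 array. COL1A2, COL3A1, DCN, LUM and THY1 were above background on no ip1 array, so they passed the filter only through the OM3 arrays and had to differ. Of the leukocyte markers, 1 of 3 tested fell (CD68) and PTPRC was above background on no array. None of 2 endothelial markers tested passed, 2 of 3 mesothelial and 1 of 2 adipocyte markers tested fell, and none of the 5 hepatocyte and gut markers passed the filter. Of those that fell, LRRN4 (mesothelial) and PLIN1 (adipocyte) also passed the filter only through the ip1 arrays. These shifts run with the same groups as every ABC value below, and their part in those values was not tested. In a bulk sample, fewer cells of a type and less RNA per cell cannot be told apart.

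The ABC probes split between signal and background. A probe was tested if it was above the background of at least 3 of the 6 arrays, which kept 37 of the 72 probes and 29 of the 42 genes. Of these 37 probes, 18 were higher and 6 lower in OM3 at an adjusted p under 0.05, against 28.2% higher and 23.1% lower among all 19013 probes tested. Read from the brightest tested probe of each gene, 13 of 29 genes (44.8%) were higher and 5 (17.2%) lower, where 30.1% and 24.9% of all 11730 genes were. The genes past the test in either direction came to 62.1%, near the 55% over all genes. The median log2 fold change of OM3 over ip1 was 0.39 for the ABC probes and 0.08 for all probes. No value of 1 group overlapped the other for 25 of the 37 probes (67.6%), against 59.8% of all probes tested. In how many members differed, the ABC family lay near the whole array. Its larger share on the higher side was not tested as a property of the family.

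**Figure D1:**
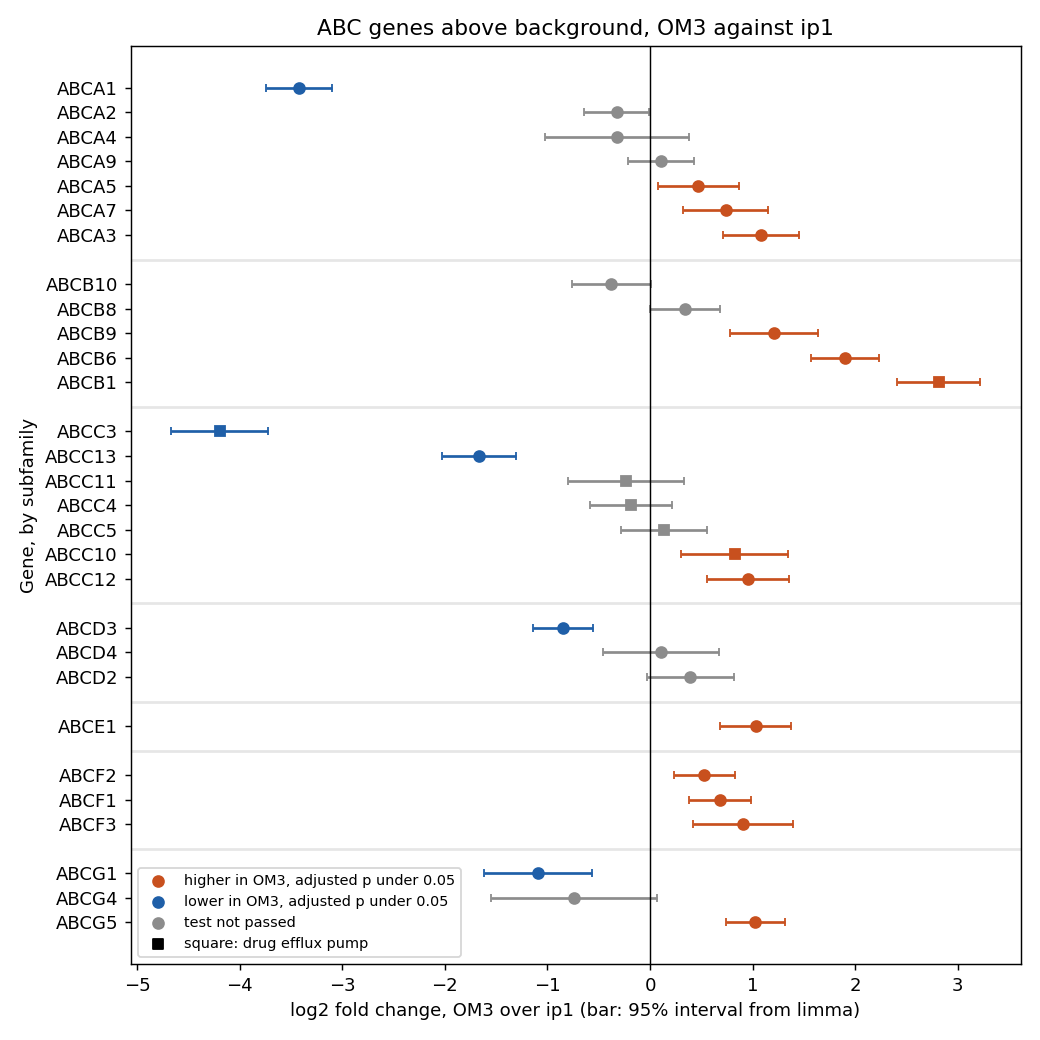
The log2 fold change of OM3 over ip1 is plotted for the 29 tested ABC genes, grouped by subfamily, with bars for the 95% interval from limma and squares for drug efflux pumps. ABCC3 and ABCA1 lie farthest to the left and ABCB1 farthest to the right; the ABCB1 point rests on background signal in ip1, and all 4 genes of ABCE and ABCF lie to the right of 0.

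Among the drug efflux pumps, the pumps above background changed in opposite directions: ABCB1 and ABCC10 rose, ABCC3 fell, and ABCC4, ABCC5 and ABCC11 did not pass the test on their brightest probes. ABCB1 encodes P-glycoprotein. Its brightest probe, ILMN_1812070, read 5.24, 5.71 and 5.81 on the ip1 arrays and 8.50, 8.39 and 8.31 on the OM3 arrays on the log2 scale. All 3 ip1 arrays were below background and all 3 OM3 arrays above it, with no overlap. On the values normalized here, ABCB1 gave an OM3 signal at least 5.44-fold higher (limma, adjusted p = 3.62e-06), a bound because ip1 gave only background signal. On the authors' deposited values its fitted log2 fold change was 1.51, which is under this bound, so the bound holds only for the normalization used here. The second ABCB1 probe, ILMN_2094875, read 5.67, 4.59 and 4.71 on the ip1 arrays and 7.11, 6.95 and 7.23 on the OM3 arrays and was at least 2.2-fold higher (adjusted p = 0.000292). On the authors' deposited values that probe gave 0.82 on the log2 scale, which is also under its bound. Both probes passed the filter only through the OM3 arrays and so had to differ, and their adjusted p is given as a description. ABCB4, the phosphatidylcholine exporter next to ABCB1 on chromosome 7, was above background on 1 array of each group and was not tested. Of the other genes around the pair, SLC25A40 (0.47 ± 0.14, adjusted p = 0.0234) and CROT (0.82 ± 0.16, adjusted p = 0.00265) rose, while RUNDC3B (-0.45 ± 0.20, adjusted p = 0.0882) and DBF4 (0.07 ± 0.32, adjusted p = 0.875) did not pass. The SLC25A40 call was lost under 11 of 23 alternative settings.

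ABCB1 has 2 start windows in the RefSeq table (GRCh38.p14), 112.4 kb apart, and both are shown because ABCB1 was the pump with background in ip1 and signal in OM3. Each window runs from 250 bases before a start to 50 bases from it, 300 in all, on the minus strand, and a base is counted from 1 at the start and from -1 before it. Capitals mark matches on either strand to CCAAT (the CCAAT box), GGGCGG (the GC box), TATAAA (the TATA box), TGANTCA (the AP-1 site) or CACGTG (an E-box).
ABCB1 upstream window chr7:87713246-87713545: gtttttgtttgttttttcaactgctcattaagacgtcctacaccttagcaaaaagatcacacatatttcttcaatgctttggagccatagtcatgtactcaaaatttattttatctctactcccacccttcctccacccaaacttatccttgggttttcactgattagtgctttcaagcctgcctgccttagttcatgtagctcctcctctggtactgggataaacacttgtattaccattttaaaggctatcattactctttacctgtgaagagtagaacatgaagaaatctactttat
ABCB1 downstream window chr7:87600835-87601134: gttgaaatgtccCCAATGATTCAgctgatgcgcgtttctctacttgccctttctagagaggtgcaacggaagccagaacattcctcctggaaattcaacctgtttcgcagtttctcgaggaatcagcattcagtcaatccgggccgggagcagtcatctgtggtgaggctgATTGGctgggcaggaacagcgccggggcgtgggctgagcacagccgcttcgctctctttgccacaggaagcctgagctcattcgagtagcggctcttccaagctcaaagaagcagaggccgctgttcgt
The upstream window, with 37.7% G and C, held none of these words. The downstream window, with 55.3% G and C, held CCAAT boxes starting at -238 and -79 and an AP-1 site starting at -234, of which the AP-1 site shares 1 base with the first CCAAT box. In 35116 windows of the same length, 34.6% held a CCAAT box and 7.71% an AP-1 site, against 23.5% and 11.8% of the 51 windows of ABC genes. These are matches of letters. The probes do not tell from which start the RNA came.

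ABCC3, a pump for glucuronide and other organic anion conjugates, had the lowest fold change of the family. Its probe ILMN_1677814 read 9.72, 9.69 and 9.85 on the ip1 arrays and 5.17, 5.51 and 5.99 on the OM3 arrays. The ip1 arrays were tightly placed, and only the third OM3 array was above background. The log2 fold change was -4.19 ± 0.21 (SE, n = 3 + 3, adjusted p = 8.82e-07), which rests in part on background signal and was -2.62 when fitted on the authors' deposited values. No promoter window of ABCC3 was used here. ABCC10, which exports taxanes, read 6.46, 5.85 and 6.40 on the ip1 arrays and 7.02, 7.42 and 6.74 on the OM3 arrays, with no overlap. The second ip1 array was below background, and ABCC10 rose by 0.82 ± 0.23 (adjusted p = 0.015), or by 0.40 on the authors' deposited values. Its call was lost when all probes were tested without a filter (adjusted p = 0.0687) and, with the tested probes held fixed, without ip1 array 2 (adjusted p = 0.0504).

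ABCC4 and ABCC5, which carry cyclic nucleotides and nucleoside analogues, had signal in both groups. The brightest ABCC4 probe read 9.04, 8.81 and 8.97 on the ip1 arrays and 8.72, 8.49 and 9.06 on the OM3 arrays, and its log2 fold change of -0.18 ± 0.17 (95% interval -0.58 to 0.22) did not pass (adjusted p = 0.42). The other ABCC4 probe, ILMN_1788457, read 9.22, 8.79 and 9.19 on the ip1 arrays and 8.51, 8.52 and 8.69 on the OM3 arrays and was lower in OM3 at -0.49 ± 0.16 (adjusted p = 0.0311). Its groups did not overlap, while those of the brightest probe did, so ABCC4 had no single answer across its probes. The call of that second probe was lost without ip1 array 1 or 3 and without OM3 array 1 or 2 (adjusted p = 0.0788, 0.0918, 0.0819 and 0.0759), with median centring (0.0743) and without a filter (0.169). For ABCC5 the brightest probe gave 0.13 ± 0.18 (95% interval -0.29 to 0.55, adjusted p = 0.576). The second ABCC5 probe spread widely over the ip1 arrays, at 7.10, 7.90 and 8.60, and gave 0.06 ± 0.33 (adjusted p = 0.89). ABCC11, known from apocrine secretion, was dim, at 6.46 ± 0.20 in ip1 and 6.22 ± 0.50 in OM3 (SD, n = 3), and gave -0.24 ± 0.25 (adjusted p = 0.456).

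The other pumps on the array gave no usable signal. ABCG2, a pump for topotecan and mitoxantrone, and ABCB5, known from melanoma, were above background on no array. ABCC2, an exporter of conjugated anions, was above background on 1 OM3 array. A value below background is no measure of absence, and each of these genes was read by 1 probe.

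**Figure D2:**
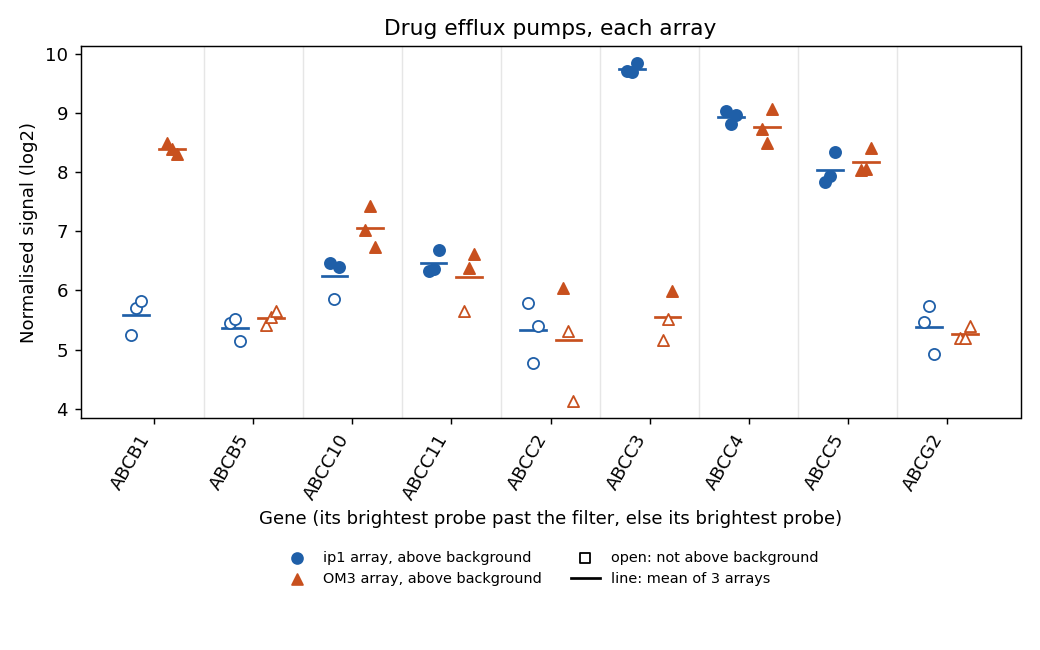
Each point is the log2 signal of the brightest probe of a drug efflux pump on 1 array, with circles for the 3 ip1 and triangles for the 3 OM3 arrays, open symbols for values not above background and lines for group means. ABCB1 is open on all ip1 arrays and filled on all OM3 arrays, ABCC3 falls to the background on 2 of 3 OM3 arrays, and ABCC4, ABCC5 and ABCC11 overlap; heights of different genes are not comparable, since each comes from another probe.

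Sterol and lipid transporters also went both ways. ABCA1, which loads cellular cholesterol and phospholipid onto apolipoprotein A-I, read 10.60, 10.53 and 10.73 on the ip1 arrays and 7.14, 7.09 and 7.36 on the OM3 arrays. Every array was above background and the groups lay far apart, a 10.7-fold lower signal in OM3 (log2 fold change -3.42 ± 0.14, adjusted p = 3.14e-07). ABCG1, which passes cholesterol to HDL particles, read 7.50, 7.34 and 7.68 on the ip1 arrays and 6.94, 6.22 and 6.09 on the OM3 arrays. The first OM3 array was the highest of its group and still below all ip1 arrays, and the log2 fold change was -1.09 ± 0.23 (adjusted p = 0.00416). ABCG1 had 6 probes, of which 2 were tested. The second tested probe, above background on 1 ip1 and 2 OM3 arrays, gave 0.09 ± 0.43 (adjusted p = 0.878), and the mean of both probes gave -0.50 (adjusted p = 0.0682). The fall of ABCG1 thus rests on 1 probe.

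The promoter window of ABCA1 is shown because ABCA1 had the largest fall among ABC genes above background on all 6 arrays. It lies on the minus strand.
ABCA1 window chr9:104928106-104928405: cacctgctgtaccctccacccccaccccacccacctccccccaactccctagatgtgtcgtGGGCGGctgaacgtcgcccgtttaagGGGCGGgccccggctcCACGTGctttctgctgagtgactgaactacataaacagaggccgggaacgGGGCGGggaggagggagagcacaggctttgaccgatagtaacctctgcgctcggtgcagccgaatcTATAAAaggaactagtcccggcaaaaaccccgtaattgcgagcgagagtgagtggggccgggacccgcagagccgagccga
It held GC boxes starting at -189, -163 and -97, an E-box at -147 and a TATA box at -31. A GC box was found in 45% of all windows and 49% of the ABC windows, a TATA box in 11.5% and 15.7%, and an E-box in 7.26% and 17.6%.

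Further lipid transporters rose. ABCA3, which fills the surfactant organelles of the lung, read 8.31, 7.96 and 8.02 on the ip1 arrays and 9.18, 9.37 and 8.98 on the OM3 arrays and was 2.11-fold higher in OM3 (1.08 ± 0.16, adjusted p = 0.000674). ABCA7, a phospholipid transporter close to ABCA1 in sequence, read 6.66, 7.03 and 6.75 on the ip1 arrays and 7.85, 7.35 and 7.45 on the OM3 arrays and rose by 0.74 ± 0.18 (adjusted p = 0.00859). Both genes had no overlap between groups, and ABCA7 lost its call without a filter (adjusted p = 0.0559) and rose by 0.42 on the authors' deposited values. ABCG5 read 6.70, 6.66 and 6.60 on the ip1 arrays and 7.72, 7.65 and 7.67 on the OM3 arrays, with little spread in either group, and was 2.04-fold higher in OM3 (1.03 ± 0.12, adjusted p = 0.000196), or 0.58 on the log2 scale of the authors' deposited values. ABCG5 works as a pair with ABCG8 in sterol export from liver and gut, and ABCG8 was above background on no array.

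The ABCG5 and ABCG8 genes lie head to head on chromosome 2, with RefSeq starts 132 bases apart on opposite strands, so that their promoter windows share 231 bases. The ABCG5 window is shown for that reason, on the minus strand.
ABCG5 window chr2:43838790-43839089: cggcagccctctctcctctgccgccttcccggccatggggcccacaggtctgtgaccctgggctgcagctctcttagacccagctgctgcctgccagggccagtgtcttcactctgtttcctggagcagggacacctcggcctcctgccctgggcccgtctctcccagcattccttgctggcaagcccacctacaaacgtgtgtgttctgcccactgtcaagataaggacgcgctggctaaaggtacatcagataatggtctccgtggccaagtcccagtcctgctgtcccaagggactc
None of the 5 words was found in it. The ABCG5 probe gave signal in both groups, and the ABCG8 probe was above background on no array.

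Most of the remaining ABCA genes did not pass the test or were not tested. ABCA2, a lysosomal transporter abundant in brain, gave -0.33 ± 0.14 (95% interval -0.64 to -0.01, adjusted p = 0.0806), although its OM3 arrays all lay below its ip1 arrays, and it passed with cyclic loess (adjusted p = 0.0166). ABCA4, the retinoid transporter of photoreceptors, gave -0.33 ± 0.31 (adjusted p = 0.41) with overlapping groups. The ABCA genes on chromosome 17 follow one another as ABCA8, ABCA9, ABCA6, ABCA10 and ABCA5. Of these, ABCA8, ABCA6 and ABCA10 were not tested, ABCA9 gave 0.10 ± 0.14 (adjusted p = 0.572), and ABCA5 read 6.15, 5.69 and 5.81 on the ip1 arrays and 6.15, 6.40 and 6.52 on the OM3 arrays. ABCA5 was just past the threshold (0.47 ± 0.17, adjusted p = 0.0487), with overlapping groups and 1 of 3 ip1 arrays above background. It lost that call under 15 of 22 alternatives, among them without ip1 array 2 or 3 (0.139 and 0.118), without OM3 array 2 or 3 (0.101 and 0.131) and in the authors' deposited values (0.146). ABCG4, a sterol transporter of neurons, gave -0.74 ± 0.35 (adjusted p = 0.115), and passed without OM3 array 2 (-1.06, adjusted p = 0.0293). ABCA12, which carries lipid in skin, and ABCA13 were not tested.

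In the ABCB subfamily outside the pumps, 2 organelle transporters rose and 2 mitochondrial ones did not pass the test. ABCB6, known for porphyrin transport, read 8.23, 8.61 and 8.35 on the ip1 arrays and 10.32, 10.31 and 10.26 on the OM3 arrays. The OM3 arrays were nearly equal, 3.73-fold above ip1 (1.90 ± 0.15, adjusted p = 1.24e-05). ABCB9, a peptide transporter of lysosomes, read 7.94, 8.54 and 8.05 on the ip1 arrays and 9.32, 9.56 and 9.26 on the OM3 arrays on its brightest probe and rose by 1.21 ± 0.19 (adjusted p = 0.000815). Its second tested probe rose by 0.87 ± 0.14 (adjusted p = 0.00108), so both probes lie on the same side. ABCB10, a mitochondrial transporter needed for haem synthesis, read 9.58, 9.44 and 9.61 on the ip1 arrays and 9.29, 8.85 and 9.37 on the OM3 arrays. Its OM3 arrays lay below its ip1 arrays, and the difference of -0.38 ± 0.17 (95% interval -0.76 to 0.01) did not pass (adjusted p = 0.0942), though it did with cyclic loess (adjusted p = 0.0328) and on the authors' deposited values (adjusted p = 0.0316). ABCB8, another transporter of the inner mitochondrial membrane, gave 0.34 ± 0.15 (95% interval -0.0026 to 0.68, adjusted p = 0.0899). ABCB11, the bile salt export pump of liver, was above background on no array.

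The promoter window of ABCB6 is shown because ABCB6 had the largest rise among ABC genes above background on all 6 arrays. It lies on the minus strand of chromosome 2.
ABCB6 window chr2:219218909-219219208: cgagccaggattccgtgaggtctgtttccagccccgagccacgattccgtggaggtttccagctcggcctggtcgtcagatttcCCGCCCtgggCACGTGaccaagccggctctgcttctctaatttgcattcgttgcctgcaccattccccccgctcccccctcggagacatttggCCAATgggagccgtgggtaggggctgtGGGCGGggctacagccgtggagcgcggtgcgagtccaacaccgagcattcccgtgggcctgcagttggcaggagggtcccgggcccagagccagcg
It held a CCAAT box starting at -73, GC boxes at -166 and -46 and an E-box at -156. The windows of ABCA1 and ABCB6 both held GC boxes and an E-box, and any link of these words to the changes was not tested.

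In the ABCC subfamily outside the pumps, ABCC12 and ABCC13 moved apart. ABCC13, a pseudogene in humans, read 7.44, 7.71 and 7.37 on the ip1 arrays and 6.02, 5.81 and 5.69 on the OM3 arrays, and only the first OM3 array was above background. Its log2 fold change was -1.67 ± 0.16 (adjusted p = 4.26e-05), or -0.82 on the authors' deposited values. ABCC12 read 5.89, 6.06 and 6.33 on the ip1 arrays and 6.87, 6.98 and 7.29 on the OM3 arrays and rose by 0.96 ± 0.17 (adjusted p = 0.00189), or by 0.45 on the authors' deposited values, with 2 of 3 ip1 arrays above background. ABCC12 and ABCC11 are neighbours on chromosome 16, and their fold changes were 0.96 and -0.24, the second not past the test. ABCC8 and ABCC9, the sulfonylurea receptors of ATP-sensitive potassium channels, were not tested, and of the channel pores KCNJ8 did not pass (-0.12 ± 0.20, adjusted p = 0.642) and KCNJ11 was above background on no array.

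Of the peroxisomal and lysosomal ABCD genes, ABCD3 fell. ABCD3, which imports branched-chain and dicarboxylic fatty acids into peroxisomes, read 8.55, 8.52 and 8.53 on the ip1 arrays and 7.78, 7.62 and 7.64 on the OM3 arrays. The ip1 arrays lay close together, and OM3 was 1.8-fold lower (-0.85 ± 0.13, adjusted p = 0.000652). ABCD3 has 1 gene, ARHGAP29, between it and ABCA4 on chromosome 1, and the call of ABCA4 differed, as given above. ABCD2, an importer of very long chain fatty acids, gave 0.39 ± 0.19 (95% interval -0.03 to 0.81, adjusted p = 0.111), and ABCD4, which exports cobalamin from lysosomes, gave 0.11 ± 0.25 (95% interval -0.46 to 0.67, adjusted p = 0.747). Both of these were above background on 1 ip1 and 2 OM3 arrays, and ABCD2 passed without ip1 array 2 with the tested probes held fixed (0.56, adjusted p = 0.0315).

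The soluble members ABCE1, ABCF1, ABCF2 and ABCF3 all rose in OM3, on every tested probe. ABCE1, which splits ribosomes after termination, read 10.45, 10.30 and 10.59 on the ip1 arrays and 11.48, 11.30 and 11.65 on the OM3 arrays and was 2.04-fold higher in OM3 (1.03 ± 0.15, adjusted p = 0.000609). A second ABCE1 probe rose by 0.90 ± 0.13 (adjusted p = 0.000596). For each of these probes, all OM3 arrays were above all ip1 arrays. ABCF1, which binds the initiation factor eIF2, read 10.90, 11.00 and 10.86 on the ip1 arrays and 11.55, 11.71 and 11.55 on the OM3 arrays and rose by 0.68 ± 0.13 (adjusted p = 0.00254), with 0.48 ± 0.13 on its second probe (adjusted p = 0.015). ABCF2 read 10.24, 10.27 and 10.33 on the ip1 arrays and 10.92, 10.75 and 10.76 on the OM3 arrays and rose by 0.53 ± 0.13 (adjusted p = 0.00886). Its second probe gave a larger rise, 1.14 ± 0.14 (adjusted p = 0.000218), so the size of the ABCF2 change depends on the probe. ABCF3, whose yeast counterpart GCN20 helps sense amino acid shortage, read 7.46, 7.24 and 6.77 on the ip1 arrays and 7.92, 8.36 and 7.92 on the OM3 arrays and rose by 0.91 ± 0.21 (adjusted p = 0.00694), or by 0.57 on the authors' deposited values. Counted by gene, 3 of 3 in ABCF and 1 of 1 in ABCE were higher, where 30.1% of all genes tested were. The 5 tested probes of ABCF and both of ABCE passed in the same direction, but probes of 1 gene are not independent. Without a filter, the brightest ABCF2 probe (adjusted p = 0.0942) and the second ABCF1 probe (0.132) lost their calls.

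**Figure D3:**
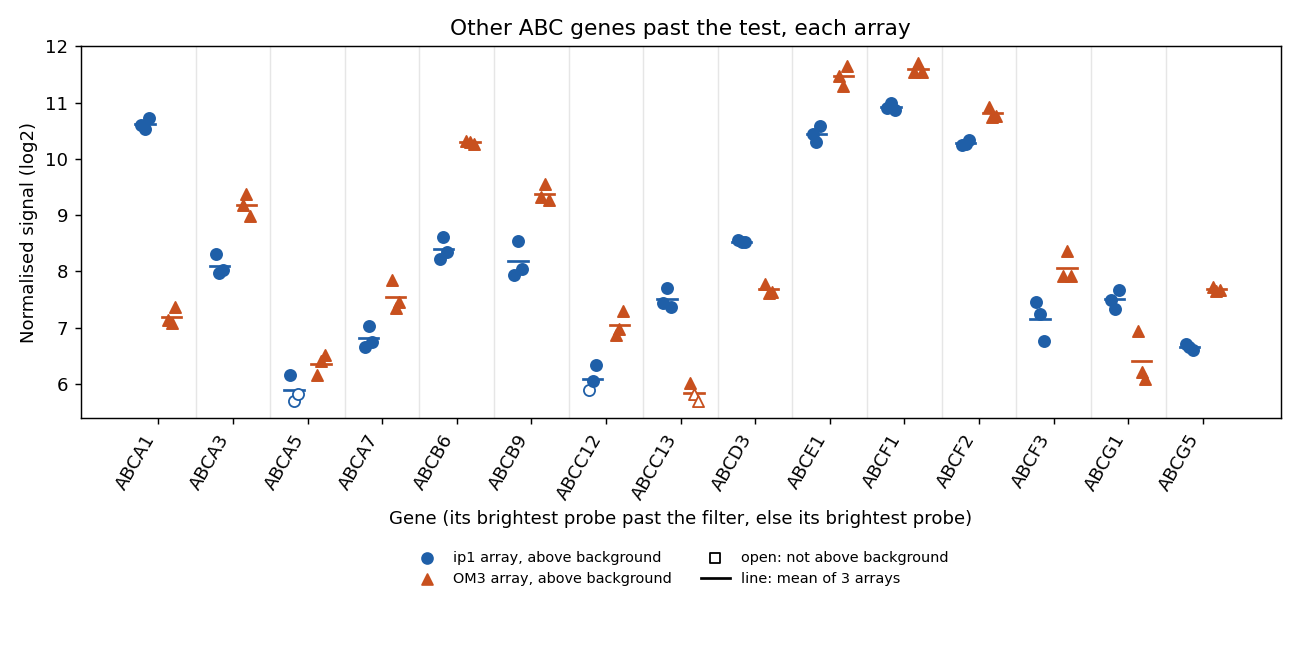
The log2 signal on each array is plotted for the 15 ABC genes outside the efflux pumps that passed the test, with circles for ip1, triangles for OM3, open symbols for values not above background and lines for the mean of 3 arrays. The groups of ABCA5 overlap, those of the other 14 genes do not, and ABCA1 shows the widest gap.

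For 8 genes, 2 probes were tested, and these probes gave the same call in 6. ABCB1, ABCB9, ABCE1, ABCF1 and ABCF2 rose on both probes, and ABCC5 passed on neither. Both ABCB1 probes passed the filter only through the OM3 arrays, so their shared call was set by the filter. ABCC4 and ABCG1 had 1 probe lower and 1 that did not pass. No gene had probes called in opposite directions.

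**Figure D4:**
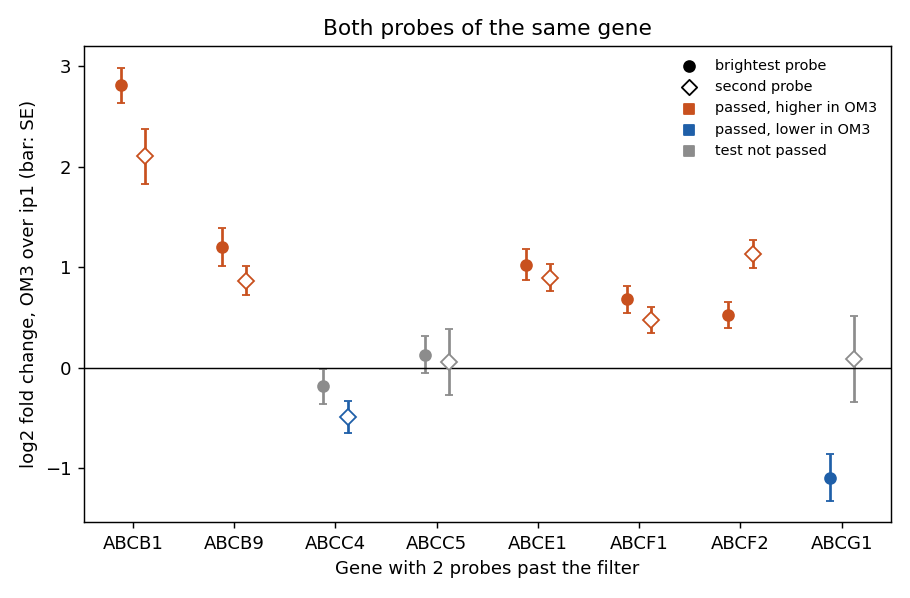
The log2 fold change of OM3 over ip1 with its SE is plotted for both tested probes of 8 ABC genes, circles for the brightest probe and open diamonds for the other. Both probes lie above 0 for ABCB1, ABCB9, ABCE1, ABCF1 and ABCF2, the brighter ABCF2 probe shows the smaller rise, and the ABCG1 probes lie apart.

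Family members that carry other symbols were read beside these. TAP2, a chain of the peptide transporter of the endoplasmic reticulum, rose by 1.48 ± 0.14 (adjusted p = 4.1e-05), from 7.86 ± 0.14 (SD, n = 3) in ip1 to 9.34 ± 0.08 in OM3, though the mean of its probes gave 0.72. Its partner chain TAP1 gave -0.32 ± 0.13 and did not pass (adjusted p = 0.0616), but did under 8 of 23 alternatives. The chloride channel CFTR was above background on 1 OM3 array and was not tested. Of the peptide loading partners tested, TAPBP, which bridges TAP to class I molecules, had a log2 fold change of -2.03 ± 0.15 (adjusted p = 9.53e-06) and B2M, the class I light chain, one of -1.14 ± 0.13 (adjusted p = 0.000125), while CALR did not pass. TAP2 thus rose while TAPBP and B2M fell. On the mean of each gene's probes the directions were the same, with TAPBP at -1.26 and B2M at -0.91. The sizes of the TAP2 and TAPBP changes thus depend on the probes used.

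Over all lists of partners, regulators and neighbours, 51 of 67 genes were tested, of which 19 rose, 11 fell and 21 did not pass. The shares among all genes tested were 30.1% higher and 24.9% lower, or 55% in either direction. Among sterol sensing genes, 3 of 5 rose and none fell: SREBF1, a driver of lipid synthesis, by 1.41 ± 0.17 (adjusted p = 0.000213), the oxysterol receptor gene NR1H3 by 0.54 ± 0.19 (adjusted p = 0.0415) and MYLIP, which degrades the LDL receptor, by 0.53 ± 0.15 (adjusted p = 0.0191). NR1H3 and MYLIP lost their calls under 10 of 23 and 8 of 23 alternatives. RXRA, the partner receptor of NR1H3, had a log2 fold change of -1.87 ± 0.17 (adjusted p = 3.03e-05). Of the HDL list, APOE rose by 2.24 ± 0.15 (adjusted p = 4.59e-06, above background on 2 of 3 ip1 arrays), SCARB1 did not pass (0.34 ± 0.13, adjusted p = 0.0519), and APOA1 was not tested.

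The list of xenobiotic receptors and regulators had 4 genes with a probe, of which 3 were tested. Beside RXRA only NFE2L2, which is not a receptor, passed (0.41 ± 0.14, adjusted p = 0.0358, lost under 11 of 23 alternatives). AHR did not pass (0.06 ± 0.19, adjusted p = 0.809). The list of other drug carriers also holds MVP, which is not a membrane carrier. Of its 6 tested genes, 1 rose and 3 fell, where 30.1% of all genes tested were higher and 24.9% lower. The one that rose was the copper exporter ATP7A (0.51 ± 0.16, adjusted p = 0.0297), whose call was lost under 12 of 22 alternatives. MVP, the major vault protein, had a log2 fold change of -2.82 ± 0.13 (adjusted p = 7.31e-07), the copper and platinum exporter ATP7B one of -1.09 ± 0.18 (adjusted p = 0.00104) and the anion carrier SLCO4A1 one of -0.67 ± 0.17 (adjusted p = 0.0094, and 0.0669 without a filter). The copper importer SLC31A1 did not pass (-0.17 ± 0.15, adjusted p = 0.378). Of 5 tested genes of proteins that hold ABCC pumps at the membrane, 2 were higher and 3 lower. The higher ones were RDX (0.74 ± 0.16, adjusted p = 0.00533) and NHERF1 (0.46 ± 0.15, adjusted p = 0.0317, lost under 11 of 23 alternatives). The lower ones were MSN (-2.38 ± 0.13, adjusted p = 1.9e-06) and EZR (-1.87 ± 0.14, adjusted p = 8.95e-06), which tie membrane proteins to actin, and the scaffold NHERF2 (7.97 ± 0.32 in ip1 and 5.97 ± 0.55 in OM3, SD, n = 3, adjusted p = 0.000466, above background on 1 of 3 OM3 arrays).

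Tested partners of the soluble members rose or did not pass the test, where 30.1% of all genes tested were higher and 24.9% lower. Of 4 tested genes of ribosome recycling, 3 rose, namely PELO (0.92 ± 0.14, adjusted p = 0.000786), which works with ABCE1 on stalled ribosomes, EIF3J (0.78 ± 0.16, adjusted p = 0.00373) and the release factor gene ETF1 (0.57 ± 0.15, adjusted p = 0.0132, and 0.0978 without a filter), and MCTS1 did not pass (-0.20 ± 0.14). Of 4 genes of the GCN pathway, GCN1 (0.89 ± 0.15, adjusted p = 0.00109) and EIF2S1 (0.66 ± 0.19, adjusted p = 0.0195, lost under 8 of 23 alternatives) rose, and EIF2AK4 and IMPACT did not pass. For peroxisomes, 1 of 5 rose, the import chaperone PEX19 (1.27 ± 0.17, adjusted p = 0.000332), which delivers ABCD3 to the peroxisome membrane, opposite in direction to ABCD3. Of 7 mitochondrial iron-sulfur and haem genes, 2 rose and 2 fell. They were ALAS1, the first enzyme of haem synthesis (0.77 ± 0.14, adjusted p = 0.00209), the sulfur donor NFS1 (0.70 ± 0.23, adjusted p = 0.0302, lost under 8 of 23 alternatives), the iron importer SLC25A37 (-0.51 ± 0.16, adjusted p = 0.0268, lost under 8 of 23) and the carrier SLC25A39 (-0.38 ± 0.13, adjusted p = 0.0389, lost under 11 of 23).

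**Figure D5:**
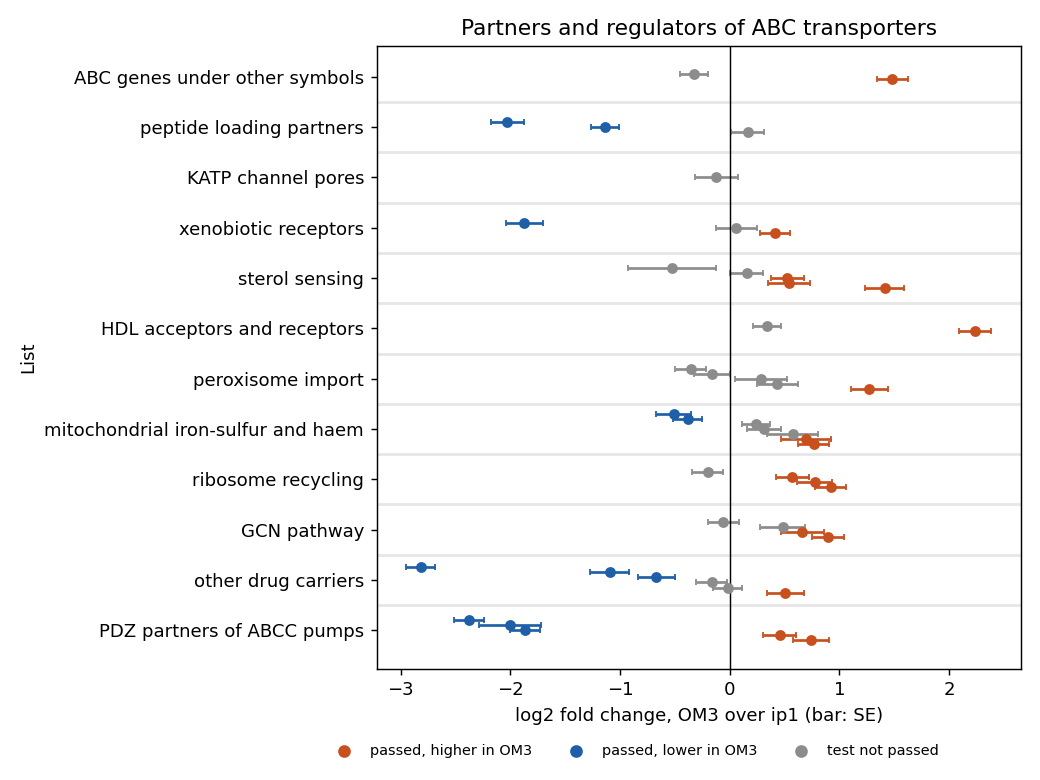
The log2 fold change of OM3 over ip1 with its SE is plotted for the tested genes of each list of partners and regulators, coloured by whether they passed the test. MVP lies farthest to the left and APOE farthest to the right, and the called genes of ribosome recycling and of the GCN pathway all lie to the right of 0.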

How the data were processed

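Linear probe intensities of single-colour Illumina bead arrays were deposited by the authors and come from BeadStudio, per the submitters' processing notes, with no version given. Column names give only the group, and arrays carry the numbers 1 to 3 by column order within it. Another 3 columns match no sample and were not used. The authors also deposited a table of log2 values that share 1 distribution; each column ranked as 1 array of its own group did (rank correlation 1), each column's median was 7 on that scale, and the steps behind it are not given in the sources used here. It served as an alternative.

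The intensity table has no control probes or detection p-values, which limma's neqc needs. The normexp model was therefore applied to every signal of an array, with an offset of 16, and the 6 arrays were then quantile normalized and put on the log2 scale. For background, the mode of the array's log2 signals (bandwidth 0.02) and the SD of the values under that mode were taken, and a probe at a one-sided probability under 0.05 was above background. Of 48799 probes, 19013 were so on at least 3 arrays. Groups were compared with limma 3.58.1 under R 4.3.3 (two-sided tests from lmFit with eBayes, adjusted by Benjamini-Hochberg across these probes). Values are mean ± SD and fold changes ± SE, with n = 3 per group, and 3 arrays a group limit the precision (median SE 0.17). Where a group had no array above background, the change is a bound ("at least") on the values normalized here: the bright mean against the mean of the higher of the probe's signal and the lowest signal above background per array. The steps were run on simulated data in which few probes changed, all of them above background on the 6 arrays. That run does not cover probes at background in a group, such as those of ABCB1, or data with as many changed probes as here.

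Symbols came from the platform annotation (28094 probes with 1 gene, 13 with several, 20692 unnamed); partners were matched by current RefSeq symbol (GRCh38.p14). Promoter windows are RefSeq's, for 34 of the 42 genes. All ABC genes past the test are given with every array, and of each partner list at most 3 called genes by size; others were named after their values were seen. Members and lists were chosen with earlier results of these data known. Alternatives were other background corrections, scalings, filters, probe choices, a variance trend and each array left out. A planned comparison of protein motifs was not made. Some family members are not reported here.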

Additional observations from a re-analysis of the deposited data

How the results depend on the processing

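Of the 18 ABC genes past the test, 13 kept call and direction under every alternative that tested them, out of up to 23; ABCA5, ABCA7, ABCC10, ABCF2 and ABCG1 lost the call under at least 1, and none reversed. ABCB1 is among these 13, but it passed the filter only through the OM3 arrays and so had to differ. It left the filter whenever 1 OM3 array was dropped or all 6 had to be above background. With the tested probes held fixed, a setting chosen after seeing the data, its fitted log2 fold change without 1 OM3 array was 2.75 to 2.85. Requiring signal over background on each of the 6 arrays gave 3 lower ABC genes and 0 called drug efflux pumps in either direction by limma, with ABCC4 and ABCC5 the 2 pumps tested and 0 at an unadjusted p under 0.05. With no filter, 1 pump was higher, and 10 partners and regulators were higher in place of 19. With cyclic loess 12 partners were higher. Without a filter the fitted fold changes were unchanged, and the tests and their adjustment ran over all 48799 probes. With cyclic loess, 47% of all called probes were higher, against 54.9% in the main fit. The cause of the cyclic loess change was not tested. On the authors' deposited values, where no background was subtracted here, sizes smaller by over 1.5 times were also found for the second ABCB1 probe, ABCA5 (0.19), ABCG1 (-0.57), ALAS1 (0.50), APOE (1.22), ATP7A (0.21), ATP7B (-0.68), CROT (0.45) and NHERF2 (-1.06), in the same direction. The mean of its probes gave TAPBP -1.26 and ABCF2 0.83. Leaving out 1 array gave 1 to 2 higher pumps and 12 to 17 higher partners. Uncalled values changed sign in these cases. ABCC5 did with cyclic loess (-0.041, and -0.103 for its second probe). That second probe ran from -0.32 to 0.43 with 1 array left out, the second ABCG1 probe from -0.28 to 0.54, ABCC11 from -0.44 to 0.043 and ABCA4 from -0.59 to 0.022. With probes held fixed, the second ABCG1 probe gave -0.20 without OM3 array 2 and -0.072 without OM3 array 3, and ABCD4 gave -0.059 without OM3 array 2. No paired analysis was possible because the replicate numbers of the groups, 1 to 3 and 4 to 6, do not match.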
